A study of Caenorhabditis elegans with 2 samples.

Results

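The chromatin protein MRG-1 binds the autosomes of Caenorhabditis elegans mostly in groups of neighbouring peaks, and the peaks described here are those that stand alone. An isolated peak was an autosomal peak narrower than 10000 bp whose neighbours on both sides were at least 20000 bp away, the first and last peak of each chromosome being left out. Of the 3782 peaks in the authors' list, 3587 were autosomal, and 225 of these (6.27%) met the rule. The peaks were chosen by their width and spacing, so their narrowness and their gaps are descriptions and not findings. The score that the authors gave each peak had no part in the choice.

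The peaks come from chromatin immunoprecipitation followed by sequencing (ChIP-seq), in which DNA crosslinked to a protein is recovered with an antibody and the places where its reads pile up are called as peaks. There was 1 ChIP library and 1 library of input DNA, and the peak list belongs to the ChIP library. Both came from whole hermaphrodites of the strain fem-2(b245), genotype fem-2(b245)III, at 20 °C, staged in the labels as young adults that contain a germline. The growth protocol describes gravid animals, a later stage. Both libraries carry the fem-2 mutation, a lesion in a gene that promotes male fate in sex determination, and no other genotype was analysed here. Germline and somatic nuclei were extracted together, so a peak cannot be placed in either. A rabbit polyclonal serum against an MRG-1 peptide, SDQ3927, was used for the precipitation after affinity purification. With 1 library there is no replicate and no test over samples. The 95% intervals below are exact binomial ones (Clopper-Pearson for shares, order statistics for medians), treat peaks as independent and cover counting error only. Read depth is unknown from a peak list.

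MRG-1 is the worm member of the MRG15 family, proteins that carry a chromodomain, a fold that reads methylated histone tails. Relatives in yeast and mammals sit in histone acetyltransferase and deacetylase complexes and are associated with the bodies of transcribed genes. In worms, MRG-1 supplied by the mother is needed for the germ line to survive, and the protein is known as one that associates with autosomes rather than with X.

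Isolated peaks were most numerous on chromosome V, which is the longest autosome and has the fewest peaks. V held 87 of the 225 (38.7%, 95% interval 32.3 to 45.4%), although it had 16.0% of all autosomal peaks and 25.3% of autosomal length as measured to the last peak. Chromosome IV held 46, II held 41, I held 31 and III held 20. As a share of the chromosome's own peaks, 15.2% of those of V were isolated, 7.02% of those of IV and 6.28% of those of II. The share was 3.41% on I and 2.51% on III, the most densely bound autosomes. Per Mb of chromosome, V had 4.17 isolated peaks, II 2.69, IV 2.63, I 2.06 and III 1.45. The rule asks for wide gaps and so is tied to the spacing of peaks on each chromosome, and nothing is read from this order. Applied to X, the same rule kept 82 of 195 peaks (42.1%), or 4.63 per Mb.

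Position along the chromosome also differed between isolated and other peaks. The outer 50% of the autosomes, their first and last 25%, held 100 of the 225 isolated peaks (44.4%, 95% interval 37.8 to 51.2%). Over all autosomal peaks the share was 57.2%, and over the 2916 other autosomal peaks narrower than 10 kb it was 63.1% (61.3 to 64.9%). The interval of the isolated peaks included 50%, the share of length, and that of the other narrow peaks lay above it. Because the rule asks for wide gaps, it is tied to how densely peaks lie along the chromosome. These shares are therefore descriptions and no test of even placement. In 10 equal parts of the chromosome, isolated peaks ranged from 17 between 90 and 100% of its length to 28 between 60 and 70%. The other narrow peaks ranged from 183 between 30 and 40% to 388 between 10 and 20%. The share in the outer 50% was lower for isolated peaks on each of the 5 autosomes, at 58.1% against 68.5% on I, 41.5% against 63.0% on II, 60.0% against 67.9% on III, 39.1% against 57.7% on IV and 40.2% against 53.5% on V. On X, 40 of the 82 isolated peaks (48.8%) and 60.2% of the other peaks were in the outer 50%. Among peaks above the median score of the list, with gaps taken anew, the order on the autosomes turned round, with 55.8% of isolated and 41.1% of other narrow peaks in the outer part. It also turned round after merging within 5 kb, an alternative chosen after seeing the data, at 49.8% against 44.9%.

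**Figure D1:**
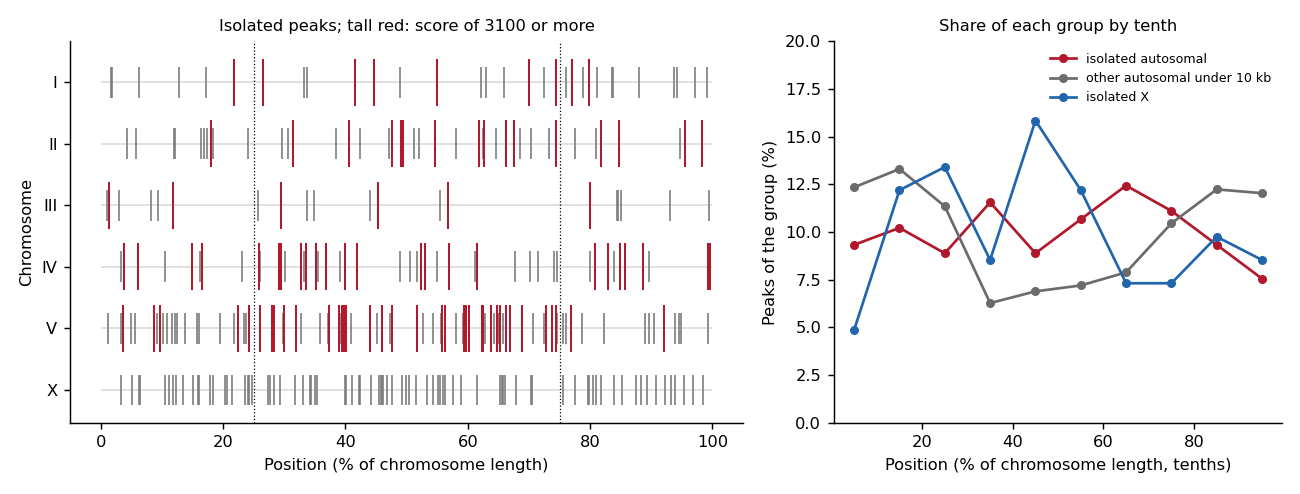
Left, each isolated peak as a tick at its position in percent of chromosome length, tall red ticks marking scores of 3100 or more and dotted lines the limits of the central 50%. Right, the percentage of isolated autosomal (225), other autosomal (2916, under 10 kb) and isolated X peaks (82) in each of 10 equal parts of the chromosome, the isolated autosomal series staying between 7.56% and 12.4%.

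The most remote peaks lay mostly in the outer 50% of the chromosomes, though not always near the ends. The distance from an isolated peak to its nearer neighbour was 34837 bp at the median (quartiles 26430 and 49209 bp), and the distance to the farther one 74241 bp. In 170 peaks the nearer neighbour was less than 50 kb away, and 38.2% of these lay in the outer 50%. Of the 55 peaks with at least 50 kb on both sides, 63.6% did so. All but 2 of the 16 peaks with at least 100 kb on both sides were in the outer part, 10 of these 16 being on V, 3 on II and 3 on IV.

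Ranked by the distance to the nearer neighbour, the most remote peak lay on IV at 14463354 to 14469172. It was 5819 bp wide, had a score of 3100, and was separated from its neighbours by 347462 and 187326 bp. The peak before it, at 14107611 to 14115891, was itself isolated and scored 3138.71, so that an interval of 347462 bp without peaks was bordered on both sides by peaks at the top of the score range. The next by this distance had low scores. On V, the peak at 17154505 to 17155772 was 1268 bp wide with a score of 254.9, and the peak at 2876047 to 2877151 was 1105 bp wide with a score of 87.5. A pair of neighbours on V followed, at 18533556 to 18536452 (score 1180.96) and 18689363 to 18692156 (score 212.3), 152910 bp apart. The most remote peaks of the other autosomes were at 873792 to 878214 on II (score 188.5, nearer neighbour at 142051 bp), at 1299349 to 1303378 on III (381.4, 89596 bp) and at 14080968 to 14082487 on I (127.5, 80705 bp). Each of these most remote peaks, 1 per autosome, lay in the outer 50% of its chromosome.

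Isolated autosomal peaks were wider than the other narrow peaks. Their median width was 3781 bp (95% interval 3237 to 4213 bp), with quartiles of 2152 and 6387 bp and a range from 1053 to 9692 bp. The 2916 other autosomal peaks under 10 kb had a median of 2342 bp (2245 to 2468 bp). The limit of 10 kb holds for both groups, and its part in this difference was not tested. With peaks of 10 kb or more included, the other autosomal peaks had a median of 2828 bp. Peaks under 1500 bp made up 12.0% of the isolated group (27 peaks) and 28.7% of the other narrow peaks, and peaks of 5000 bp or more made up 35.6% and 22.3%. The median was larger for isolated peaks on each of the 5 autosomes, from 3179 against 2069.5 bp on I to 4341 against 2519.5 bp on IV. Isolated peaks on X were narrower, with a median of 1797 bp (1517 to 2129 bp), and 1 of the 82 reached 5000 bp. The 113 other X peaks had a median of 1873 bp (1587 to 2192 bp), an interval that overlaps that of the isolated ones.

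Isolated autosomal peaks carried high scores. The score is the value the authors' peak caller gave to each peak. It has no stated scale, and it is used here to rank peaks within the list. It reaches a plateau at 3100, where peaks cannot be ranked. The median score of the isolated peaks was 2454 (95% interval 1902 to 2968), against 408.3 (370.3 to 471.0) for the other autosomal peaks under 10 kb and 221.5 (173.2 to 282) for isolated X peaks. Of the 225, 92 reached 3100 or more (40.9%, 34.4 to 47.6%), against 22.0% of all autosomal peaks and 16.7% (15.4 to 18.1%) of the other narrow ones. None of the 82 isolated X peaks reached that value, which allows a share of up to 3.66% by the limit of 3 counts in 82 and up to 4.40% by the exact interval. Median scores were higher for isolated than for other narrow peaks on each of the 5 autosomes, at 3100 against 470.3 on IV, 2818 against 524.3 on V, 1983 against 453.8 on III, 1958 against 518 on II and 1136 against 295.2 on I. The same held within parts of the chromosome. In the central 50% the median score was 3100 for isolated and 1363 for other narrow peaks, and in the outer 50% it was 1162 and 240.9.

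The peaks at the plateau and those at the bottom of the score range differed in place and width. The 92 isolated peaks with scores of 3100 or more had a median width of 5787 bp, and 31.5% of them lay in the outer 50%. Of the 488 other narrow peaks with such scores, 172 lay there, so this place was not particular to isolated peaks. A further 18 isolated peaks (8%) scored under 100, against 15.9% of all autosomal peaks and 18.7% of the other narrow ones. Their median width was 1187 bp, and 14 of these 18 were in the outer 50%. Their place was not set beside that of other peaks with such low scores. Exactly 3100 was the score of 86 isolated peaks and 6 had a larger number, which need not make them stronger than the 86. The largest number, 3208.54, belonged to a peak on V at 2008416 to 2011807 that was 3392 bp wide. Others in this range lay on V at 15510257 to 15514178 (3191.5), on II at 12459264 to 12461722 (3157.85), on IV at the place given above, and on V at 9175237 to 9178275 (3132.93). The peak on II was 2459 bp wide and had 114988 and 122483 bp free of peaks on its sides, and thus combined a small width and a remote place with a score of over 3100. At the other extreme, the lowest score, 57.98, belonged to the narrowest isolated peak, 1053 bp wide on V at 18855809 to 18856861. The next lowest were on III at 131972 to 133146 (62.53), on IV at 8827920 to 8829194 (66.98), on I at 10890569 to 10891728 (70.06) and on II at 1818987 to 1820159 (75.11), with widths of 1160 to 1275 bp.

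**Figure D2:**
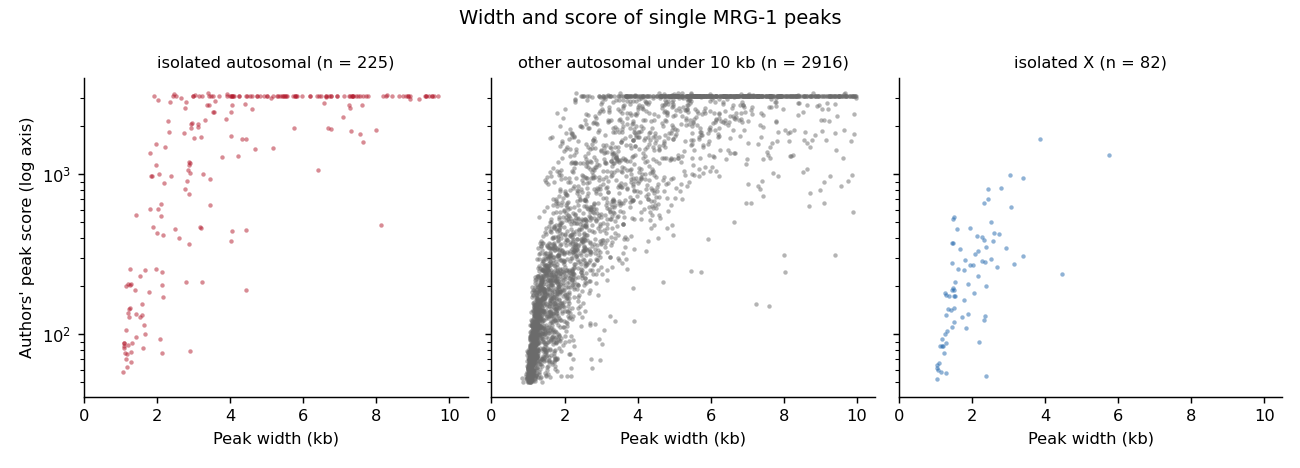
Peak width in kb against the authors' score on a log axis, each point 1 peak, for 225 isolated autosomal peaks, 2916 other autosomal peaks under 10 kb and 82 isolated X peaks. Many isolated autosomal peaks sit on the plateau at 3100, which no isolated X peak reaches.

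Score rises with width in this list, so the scores were also set side by side within classes of width. A class does not match width fully. Median widths of isolated and other narrow peaks were 2018 and 1874 bp from 1500 to 2500 bp. They were 3444 and 3509 bp from 2500 to 5000 bp, and 7179.5 and 6799 bp from 5000 to 10000 bp. Across peaks, Spearman's rho between width and score was 0.746 for the 225 isolated peaks and 0.897 for the 2916 other narrow peaks, which share 1 library. Under 1500 bp, the 27 isolated peaks had a median score of 95.4 and the other narrow peaks one of 90.7, within the interval of the former (82.0 to 146.1). From 1500 to 2500 bp, the medians were 550.2 (245 to 981.1, 39 peaks) and 247.2 (235.1 to 261.4). Between 2500 and 5000 bp they were 2454 (1823 to 2869, 79 peaks) and 1107 (986 to 1209). Both medians stood on the plateau from 5000 to 10000 bp, where 76.3% of 80 isolated and 59.6% of other peaks had 3100 or more. In the class from 2500 to 5000 bp the median was higher for isolated peaks on 5 of 5 autosomes. From 1500 to 2500 bp it was higher on 4 of 5, the exception being I (169.7 against 233.8). That narrower class held few isolated peaks per autosome, from 3 on III to 12 on V. Its share at 3100 or more was higher for isolated peaks on 2 of 5 autosomes. Isolated X peaks of 2500 to 5000 bp had a median of 420.6 (294.9 to 815.2, 15 peaks). This was below that of isolated autosomal peaks of the same class, whose interval lay wholly above it. Median widths within that class were 2924 bp for the isolated X peaks and 3444 bp for the isolated autosomal ones. Under 1500 bp, isolated X peaks (median 102.5) and isolated autosomal peaks had overlapping intervals.

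**Figure D3:**
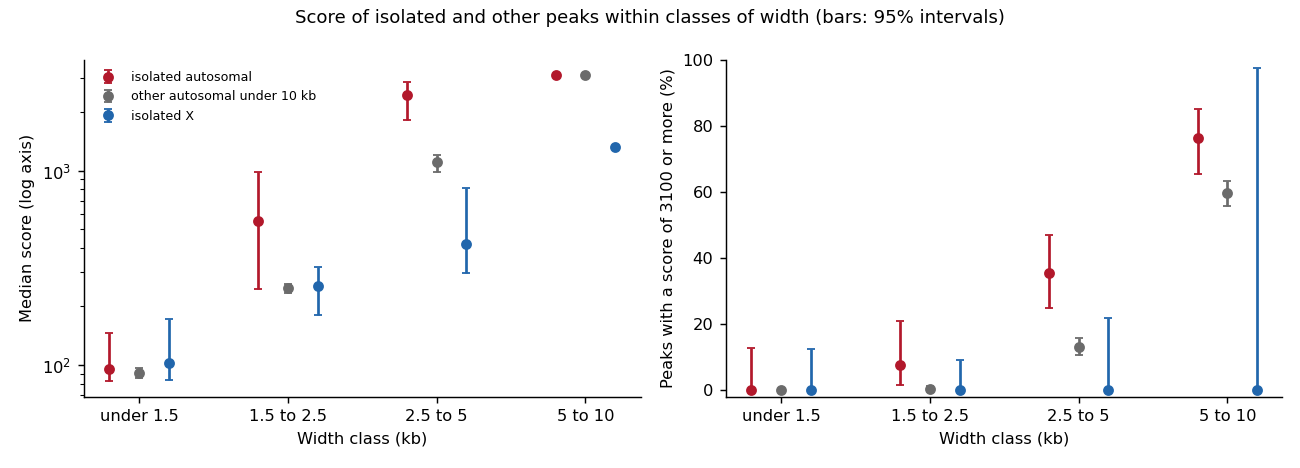
Median score on a log axis (left) and percentage of peaks with a score of 3100 or more (right) in 4 classes of width, with 95% binomial intervals, for isolated autosomal, other autosomal and isolated X peaks. The classes from 1500 to 5000 bp hold the widest separation between the autosomal groups in median score.

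How far width and score depend on the choice of 20 kb was seen by ordering all autosomal peaks under 10 kb by the distance to their nearer neighbour. Median scores were 315.3 for 1631 peaks with a neighbour within 1 kb and 323.8 for 787 peaks with one at 1 to 5 kb. They were 1829 at 5 to 10 kb (263 peaks), 2803 at 10 to 20 kb (227 peaks), 2739 at 20 to 30 kb (84 peaks) and 2843 at 30 to 50 kb (86 peaks). The step thus came near 5 kb, well inside the limit of the rule, and the interval of peaks with a neighbour at 10 to 20 kb (1991 to 3100) overlapped those of the 2 classes that follow. At larger distances the medians were lower but uncertain, at 1602 for 39 peaks at 50 to 100 kb (interval 463 to 3100) and 955 for the 16 peaks beyond 100 kb (188.5 to 3100). Median widths were 2098 bp within 1 kb, 2162 bp at 1 to 5 kb, 3657 bp at 5 to 10 kb and 4509 bp at 10 to 20 kb. Farther out they were 4276 bp at 20 to 30 kb, 3494 bp at 30 to 50 kb, 3537 bp at 50 to 100 kb and 2627 bp beyond 100 kb. The share of these autosomal peaks in the outer 50% changed over the same classes. It was 69.3% within 1 kb, 66.8% at 1 to 5 kb, 37.6% at 5 to 10 kb and 33.5% at 10 to 20 kb. Beyond 100 kb it was 87.5%. Distance and place along the chromosome thus changed together, and their parts in the scores and widths were not tested. On X, median scores lay between 176.4 and 370.5 in the 8 classes.

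**Figure D4:**
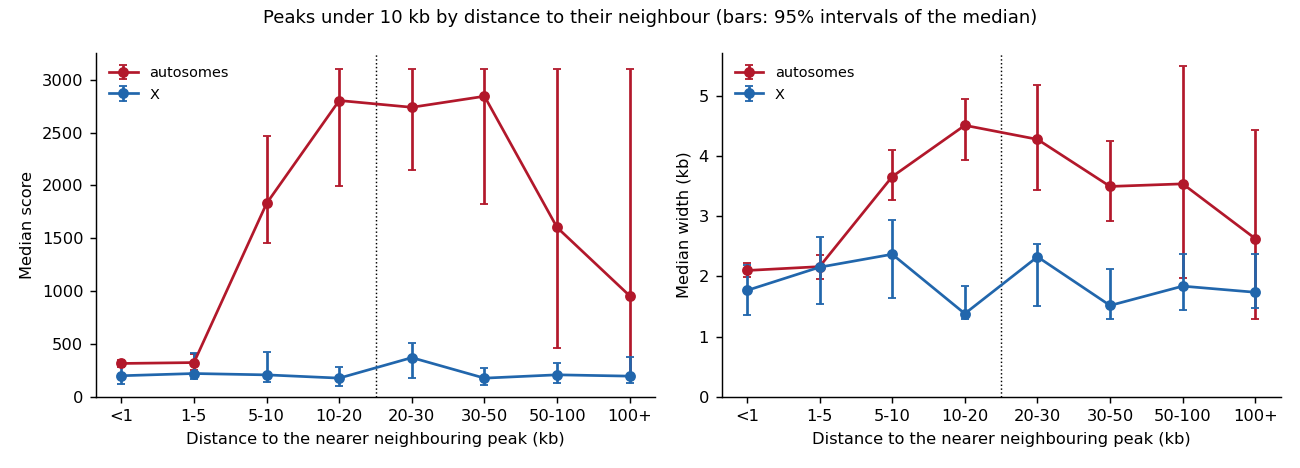
Median score (left) and median width in kb (right) of peaks under 10 kb by distance to the nearer neighbouring peak, on autosomes (red) and X (blue), with 95% intervals of the median. The dotted line marks the 20 kb of the rule; the autosomal medians climb between the classes of 1 to 5 kb and 10 to 20 kb, and the X medians stay below 400.

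Whether close calls are parts of 1 bound region cannot be told from the list, so the comparison was repeated after joining them. A joined region took the highest score of its parts, so regions made of several peaks had more scores to draw from than single peaks. When peaks less than 1 kb apart were merged, 257 autosomal regions were isolated, with a median width of 4053 bp against 3491 bp for other regions under 10 kb, and 38.9% against 23.1% scored 3100 or more. After merging within 5 kb, an alternative chosen after seeing the data, 283 were isolated. Their median width of 4432 bp was then below the 4835 bp of the others, and the shares at 3100 or more were 36.4% and 33.1%. Among peaks above the median score the widths also turned round, at 4734 bp against 4971 bp. Within the class of 2500 to 5000 bp, the median score of isolated regions was 2096 against 921.6 after merging within 1 kb, and 2079 against 1715 after merging within 5 kb.

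At the thresholds of the rule, values ran on without a break. The smallest distance to a nearer neighbour was 20012 bp, shared by a peak on II at 4672849 to 4673982 and the widest isolated peak, 9692 bp on V at 13620573 to 13630264. Just outside were peaks on IV at 10985564 to 10989484 (19995 bp) and on III at 12574147 to 12575544 (19731 bp). The next widest isolated peak was 9566 bp wide, on V at 14348408 to 14357973, with a score of 3100. Just beyond the limit of width were peaks of 10082 bp on II at 10653052 to 10663133 and of 10207 bp on I at 7456856 to 7467062, each scored 3100. In all, 58 autosomal peaks had 20 kb or more on both sides but were 10 kb or wider. Of these, 9 (15.5%, 7.35 to 27.4%) lay in the outer 50%. A score of 3100 or more was found in 39.7% (27.05 to 53.36%), beside 40.9% of the isolated peaks. These wide peaks were not set beside the other autosomal peaks of 10 kb or more.

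The surroundings of isolated peaks held fewer peaks than those of other narrow peaks, also beyond the stretch that the rule requires to be empty. The gaps chosen by the rule often run on past 20 kb, with a median of 74241 bp for the larger one. The densities that follow are thus tied to the rule and are given as a description. Between 20 and 500 kb from the peak on either side, isolated peaks had a median of 35.4 peaks per Mb (quartiles 26.0 and 45.8), and the other autosomal peaks under 10 kb had 47.9 (35.4 and 70.8). The median was lower for isolated peaks on each of the 5 autosomes, by the smallest margin on V (28.1 against 31.3 per Mb). Around isolated X peaks it was 10.4 per Mb (quartiles 7.29 and 13.3), so the median was higher around isolated autosomal peaks. Single peaks overlapped, with densities down to 4.17 per Mb around isolated autosomal peaks and up to 25 per Mb around isolated X peaks.

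Some isolated peaks were direct neighbours of each other. Neighbours share the gap between them, so the rule itself raises this number, and it is given as a description. Of the 225, 113 (50.2%) had at least 1 isolated peak as a direct neighbour, 19 of them on both sides. There were 13 runs of 3 or more consecutive isolated peaks, the longest of which held 5. A run of 5 on V spanned 8126353 to 8359550 and was strong throughout, with scores of 2096 to 3100, 4 of them at the plateau. The other run of 5, on II from 2504425 to 2793607, had scores from 471.5 to 3100 with 1 at the plateau. The 315 flanking peaks that were not isolated themselves had a median width of 4691 bp and a median score of 1631, and 74 (23.5%) were 10 kb or wider. An isolated peak scored above both of its neighbours in 60 cases and below both in 61. Ties at 3100 counted as neither, and numbers over 3100 counted as higher. The plateau thus limits both counts, since 92 isolated and 103 of these flanking peaks had 3100 or more.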

How the data were processed

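Per the labels, frozen adults were ground, fixed in 1% formaldehyde for 10 minutes and sonicated, and 5 µg of antibody was used for each ChIP. Reads were processed with BWA and the build ce10, per the submitters' processing notes. Peaks carry MACS as their source and the build WormBase WS220, per the file headers. For the caller's version, its settings and its use of the input, nothing is stated (not given in the sources used here). Each peak's score was deposited by the authors with no scale.

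Peaks were sorted by chromosome and start, gaps taken between neighbours, and the rule applied to the deposited start and end positions. The end of a chromosome's last peak stood for its length, which is a lower bound. A peak lies where its midpoint lies. The selection was run on simulated lists and returned the same peaks as a second coding of the same rule, which checks the code only. No test was made: there is 1 library, and peaks are not replicates. Named peaks are the 5 most remote, 5 highest and 5 lowest in score, the widest and narrowest, the most remote of each autosome and those next to the thresholds. The longest runs were named after their values were seen. The members and comparisons were chosen with earlier results of these data known. Peaks were not assigned to genes and no sequence is shown, since the gene table at hand is on another build. Software was Python 3.11.15 with NumPy 2.4.6, pandas 2.3.3, SciPy 1.17.1 and Matplotlib 3.10.9.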

Additional observations from a re-analysis of the deposited data

How the results depend on the processing

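The list has 1 library of unknown depth, so binding below the calling threshold and the reproducibility of any peak cannot be seen. No paired analysis was possible because there was 1 ChIP library and no second sample to pair it with. The number of isolated peaks (225) was 452 with a gap of 10 kb, 141 with 30 kb, 145 for widths under 5 kb, 346 in the upper 50% by score and 138 without chromosome V. The share on V (38.7%) was 29.0% with a gap of 10 kb, 31.2% in the upper 50% by score, 47.3% without II and 48.6% without IV. The share in the outer 50% (44.4%) was 55.8% in the upper 50% by score, and 63.6% lay outside a centre of 33%. The median width (3781 bp) was 2794 bp for widths under 5 kb, 4742 bp with no limit, 4734 bp in the upper 50% by score and 4432 bp after merging within 5 kb. For widths under 5 kb, the median score was 1015 and the share at 3100 or more 21.4%, against 233.9 and 4.42% in the other peaks of that width. Each of these alternatives changes which peaks are counted, and no other cause was tested. Over all alternatives, 62 of 79 values stayed within their interval or 1.5 times the count. Median scores exceeded those of other peaks under every alternative, by the least after merging within 5 kb (2063 against 1742).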

Other observations

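Autosomal peaks under 10 kb with 20 kb or more on 1 side only, which border groups of peaks, stood between isolated peaks and those inside groups. Their median width was 3104.5 bp and their median score 1014, against 1978 bp and 279.5 for 1848 peaks with a neighbour within 20 kb on both sides. A score of at least 3100 was found in 25.6% of the 1060 bordering peaks (23.0 to 28.3%) and in 11.6% of those inside (10.2 to 13.1%). Their share in the outer 50% of the chromosome was 52.0% and 69.3%.

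Autosomal peaks joined by gaps under 20 kb formed 626 groups of 2 or more peaks. The best peak of a group had a score of 3100 or more in 64.2% of them (60.3 to 68.0%), from 57.8% of 173 groups of 2 peaks to 85.5% of 62 groups of more than 10. Among all 287 autosomal stretches with a single peak, whatever its width, the share was 41.1% (35.4 to 47.1%). Counted over single peaks the order was the other way round, with 20.8% of the autosomal peaks outside the isolated group at 3100 or more. A group offers several peaks from which the best is taken, and its part in this order was not tested.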
